A study of Mus musculus with 20 samples.

Results

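The 10 imprinted growth regulators Ndn, Cdkn1c, H19, Igf2, Plagl1, Dlk1, Meg3, Grb10, Peg3 and Mest were followed through leptin receptor (Lepr)-sorted blood stem and progenitor cells of the mouse. They were taken by name, with earlier results of these data known, and are 10 of the 55,573 genes in the count tables. RNA was sequenced from bone marrow of C57BL/6 mice aged 7 to 9 weeks, 2 mice pooled per sample and 1,000 to 8,000 sorted cells per library. After depletion of lineage-positive cells, haematopoietic stem cells (HSC) were gated as Lin-Sca1+cKit+ (LSK) CD150+CD48- and multipotent progenitors (MPP) as LSK CD150-CD48-. Each was divided by surface leptin receptor, the receptor of a fat-derived hormone that in marrow is best known on perivascular stromal cells. This gave 4 groups of 5 libraries, HSC that were Lepr+ or Lepr- and MPP that were Lepr+ or Lepr-, 20 in all. No genotype, transgene or treatment separated the groups, and the sex of the mice is not given in the sources used here.

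An imprinted gene is transcribed from the copy of a single parent, because a mark of DNA methylation set in the germ line silences the other copy. Many imprinted genes act on growth, and in mouse haematopoiesis several of those followed here are known for holding stem cells in quiescence. Cdkn1c encodes a cyclin-dependent kinase inhibitor of the Cip/Kip family. Ndn encodes necdin, a MAGE-family protein that restrains proliferation. Grb10 encodes an adaptor that dampens insulin and IGF receptor signalling, and Plagl1 encodes a zinc-finger transcription factor that arrests growth. H19 is a non-coding RNA made from the maternal copy of the domain that makes the growth factor Igf2 from the paternal copy. Dlk1 encodes a transmembrane ligand-like protein and Meg3 a maternally transcribed non-coding RNA of the same domain. Peg3 encodes a zinc-finger protein, and Mest a protein of the hydrolase fold. The counts do not separate the parental copies, so imprinting itself was not measured.

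H19 was the member that passed the main test, and its RNA is also the precursor of miR-675. Both mature forms are shown with their seed, bases 2 to 8, in capitals. They are RefSeq sequences on GRCm38.p6 at chr7:142577112-142577133 and chr7:142577078-142577099, both on the minus strand.
mmu-miR-675-5p: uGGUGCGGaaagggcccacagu
mmu-miR-675-3p: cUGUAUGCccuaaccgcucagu
The 2 seeds differ from each other and from those of miR-335, miR-483 and miR-770, which lie in Mest, Igf2 and Meg3. The separate gene entries of the 4 miRNA precursors had 0 counts in all 20 libraries, and mature miRNAs are not measured by this kind of library.

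Grb10 was among the most abundant members and is known to be read from different starts on the 2 parental copies. RefSeq gives 2 starts with a window of 250 bases upstream, shown 5′ to 3′ on the minus strand with every CpG, the dinucleotide that carries the imprint, in capitals. The first is chr11:12037421-12037670 and the second chr11:12027972-12028221.
Grb10, distal start: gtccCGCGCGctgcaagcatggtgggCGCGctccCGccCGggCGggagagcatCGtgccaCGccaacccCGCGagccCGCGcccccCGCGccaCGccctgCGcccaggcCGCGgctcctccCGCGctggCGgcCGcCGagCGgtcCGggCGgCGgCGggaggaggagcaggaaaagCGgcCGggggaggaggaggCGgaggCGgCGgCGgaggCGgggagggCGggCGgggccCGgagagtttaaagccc
Grb10, proximal start: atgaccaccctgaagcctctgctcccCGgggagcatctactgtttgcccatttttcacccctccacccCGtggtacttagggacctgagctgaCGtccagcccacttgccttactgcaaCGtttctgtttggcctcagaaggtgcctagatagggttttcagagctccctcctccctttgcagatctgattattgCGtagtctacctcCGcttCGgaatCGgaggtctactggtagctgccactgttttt
The distal window held 40 CpG, more than 98.7% of the 32,851 RefSeq windows of the same length, whose median was 6. The proximal window held 8 CpG, more than 57.0% of all windows. Since reads were summed per gene, the values below do not tell these starts apart. Windows were found for 8 of the 10 members, 15 windows in all, and not for Cdkn1c or H19. TGCCGC, the letters that the imprint-keeping protein ZFP57 is known to bind, was searched on both strands. At least 1 match was present in 8.7% of all windows. A Mest window at chr6:30737800-30738049 held 2 matches, a number reached by 0.9% of all windows, as did a second Mest window that starts 3 bases further on. A Meg3 window at chr12:109540746-109540995 and the Plagl1 window at chr10:13090582-13090831 held 1 each, so that 4 of the 15 member windows had a match. The 2 Mest windows overlap and hold the same 2 matches, so these 4 windows are not separate stretches.

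Libraries held 9,532,993 to 31,589,794 counts assigned to genes. Levels are given in CPM, counts as a share of a library size scaled by the trimmed mean of M values. The sort was visible in the RNA of Slamf1 and Flt3, but not in the HSC markers as a list. Of 8 HSC markers, Slamf1 among them, 4 were higher and 4 lower in Lepr+ HSC over Lepr+ MPP. In Lepr- HSC over Lepr- MPP 2 were higher and 6 lower, and edgeR called 1 higher and 2 lower. All 3 MPP markers, Flt3 among them, were lower in HSC in both comparisons. Slamf1, which encodes CD150, averaged 41.4 ± 17.7 CPM in Lepr+ HSC compared with 5.03 ± 3.02 CPM in Lepr+ MPP, while Lepr- HSC had 46.6 ± 13.4 CPM, against 5.12 ± 3.83 CPM in Lepr- MPP (SD, n = 5 each). Flt3, a receptor of MPP, ran the other way, with 16.4 and 256.2 CPM in Lepr+ HSC and Lepr+ MPP, and 19.9 and 473.9 CPM in Lepr- HSC and Lepr- MPP. The Lepr+ MPP libraries stood apart in their markers of marrow stroma. The summed level of 23 stromal genes was 233.8, 990.3, 879.2, 1095 and 3528 CPM in Lepr+ MPP replicates 1 to 5, and 81.9 to 130.0 CPM in Lepr- MPP. In HSC it was 114.0 to 353.8 CPM in Lepr+ libraries and 74.7 to 281.2 CPM in Lepr- libraries. The defining stromal genes Adipoq, Lum, Ebf3, Pdgfra and Grem1 were at 0 in all Lepr- MPP libraries, and Ebf3 in all Lepr- HSC libraries. Lepr+ MPP replicates 4 and 5 and Lepr+ HSC replicate 5 were the least like their own groups across all genes.

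Necdin, the MAGE-family restrainer of proliferation, was read in all 20 libraries with 17,450 counts. Ndn (ENSMUSG00000033585.5) lies at chr7:62346569-62350262 on the plus strand of GRCm38. It had 71.3, 61.0, 58.8, 74.2 and 90.5 CPM in Lepr+ HSC replicates 1 to 5, against 45.5, 28.2, 29.3, 40.3 and 34.5 CPM in Lepr- HSC. In MPP it had 46.1, 45.7, 37.6, 39.7 and 49.9 CPM in the Lepr+ libraries, against 26.9, 18.5, 17.3, 15.3 and 34.1 CPM in the Lepr- libraries. All 5 Lepr+ libraries lay above all 5 Lepr- libraries in HSC and again in MPP. The group means, highest to lowest, were 71.2 ± 12.7 CPM in Lepr+ HSC, 43.8 ± 5.06 in Lepr+ MPP, 35.5 ± 7.33 in Lepr- HSC and 22.4 ± 7.86 in Lepr- MPP (SD, n = 5 each). Of the neighbours in this order Lepr+ HSC and Lepr+ MPP did not overlap, while Lepr+ MPP overlapped Lepr- HSC and Lepr- HSC overlapped Lepr- MPP.

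Cdkn1c, the cyclin-dependent kinase inhibitor, was also read in every library, with 4,666 counts, and lies at chr7:143458339-143461050 on the minus strand. Lepr+ HSC replicates 1 to 5 had 18.3, 23.8, 17.6, 25.2 and 22.9 CPM, against 8.10, 11.2, 7.11, 10.6 and 8.24 CPM in Lepr- HSC. Lepr+ MPP had 7.80, 11.3, 8.88, 19.3 and 19.8 CPM, against 4.81, 4.78, 4.72, 4.67 and 6.35 CPM in Lepr- MPP. Again no Lepr+ library overlapped a Lepr- library of the same cell type, but the Lepr+ MPP libraries fell into a lower set, replicates 1 to 3, and a higher one, replicates 4 and 5. Group means were 21.6 ± 3.40 CPM in Lepr+ HSC, 13.4 ± 5.75 in Lepr+ MPP, 9.05 ± 1.75 in Lepr- HSC and 5.06 ± 0.720 in Lepr- MPP (SD, n = 5 each). Among neighbours in this order only Lepr- HSC and Lepr- MPP were free of overlap. An antisense gene, Gm44732, covers 30.7% of the exonic bases of Cdkn1c and had 0 counts. The libraries were not stranded.

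Grb10, the adaptor of insulin and IGF receptors, had the most counts of the 10 genes, 36,899, at chr11:11930508-12038683 on the minus strand. It had 90.7, 94.3, 150.9, 83.2 and 59.5 CPM in Lepr+ HSC, against 93.0, 179.7, 130.2, 80.5 and 61.9 CPM in Lepr- HSC. Lepr+ MPP had 64.7, 70.8, 92.8, 92.2 and 75.6 CPM, against 52.5, 48.2, 51.0, 62.3 and 96.8 CPM in Lepr- MPP. The ranges of the 4 groups overlapped, and no group lay above or below another as a whole. Levels of different genes were compared per kilobase of exon. On that scale Ndn averaged 11.7 CPM per kb over the 20 libraries, Grb10 9.52 and Cdkn1c 6.02, and each of the other 7 members 0.0060 to 0.553. Within Lepr+ HSC the order was Ndn at 19.3, Cdkn1c at 10.6 and Grb10 at 10.5 CPM per kb. In Lepr- HSC Grb10 led, above Ndn at 9.62 and Cdkn1c at 4.44 CPM per kb. These 3 genes made up 92.3% of the summed CPM of the 10 in Lepr+ HSC, 96.2% in Lepr- HSC, 93.5% in Lepr+ MPP and 97.0% in Lepr- MPP.

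**Figure D1:**
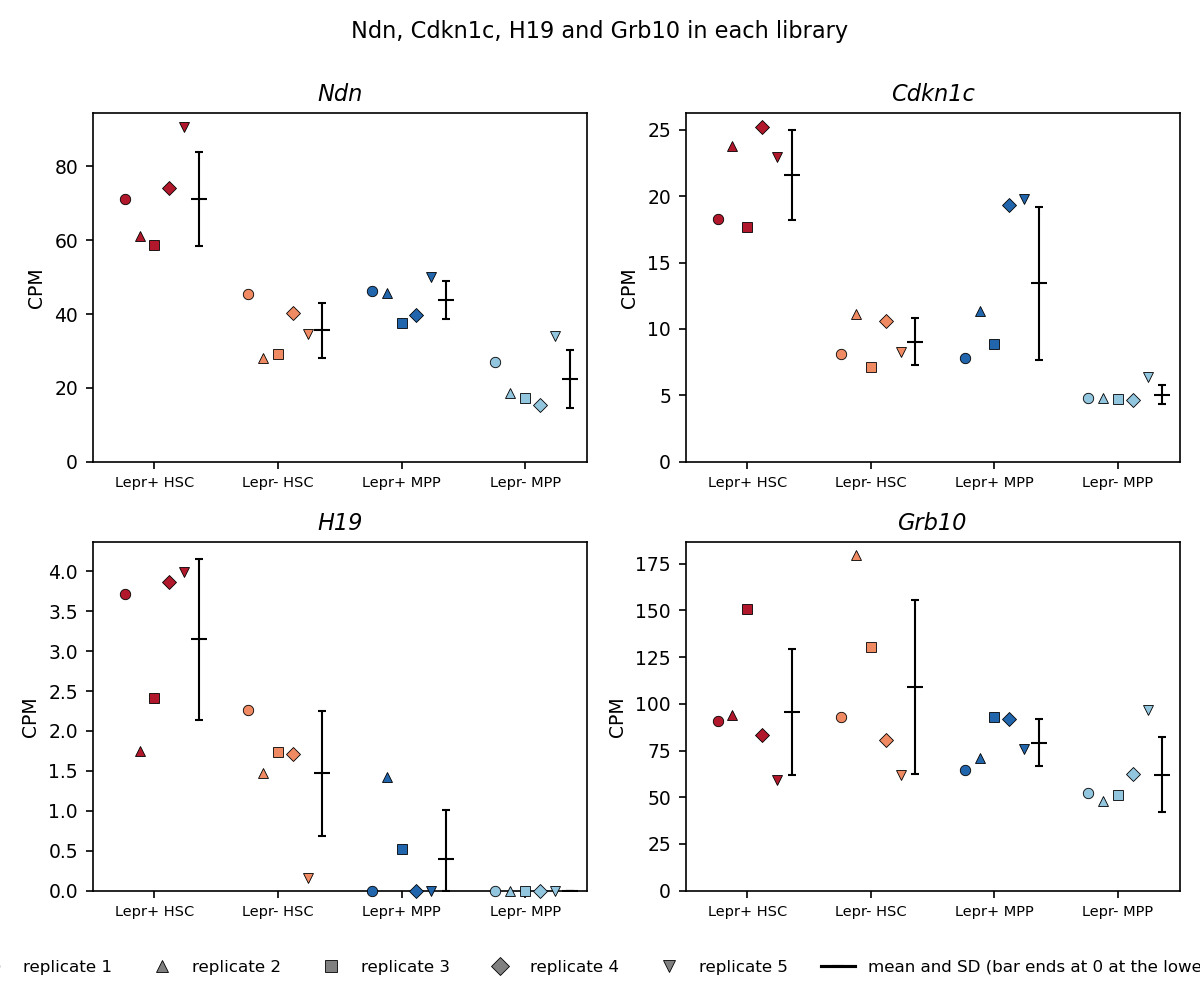
CPM of Ndn, Cdkn1c, H19 and Grb10 in each library of the 4 groups, HSC left and MPP right with Lepr+ before Lepr- (1 panel per gene, marker shape for the replicate number, mean and SD of 5 libraries as a bar). Ndn and Cdkn1c are higher in all Lepr+ than in all Lepr- libraries of the same cell type, H19 is at 0 in all 5 Lepr- MPP libraries, and the Grb10 ranges overlap.

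H19 lies at chr7:142575529-142578143 on the minus strand and was read in 12 of the 20 libraries. Lepr+ HSC replicates 1 to 5 had 94, 34, 83, 51 and 38 counts, or 3.72, 1.75, 2.41, 3.87 and 3.995 CPM. Lepr- HSC had 67, 25, 47, 20 and 2 counts, or 2.26, 1.47, 1.73, 1.71 and 0.165 CPM. Every HSC library thus held H19, and the Lepr+ and Lepr- ranges overlapped. Lepr+ MPP had 0, 38, 17, 0 and 0 counts, and all 5 Lepr- MPP libraries had 0. Means were 3.15 ± 1.01 CPM in Lepr+ HSC, 1.47 ± 0.784 in Lepr- HSC and 0.390 ± 0.622 in Lepr+ MPP (SD, n = 5 each).

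Igf2, the growth factor of the same domain at chr7:142650766-142666816 on the minus strand, was close to the limit of detection. It had 6, 1, 4, 0 and 0 counts in Lepr+ HSC, 1 count in all Lepr- HSC libraries together, 1, 1, 2, 0 and 1 counts in Lepr+ MPP and 0 in Lepr- MPP. With 17 counts in all it did not pass the filter on low counts and was the member left out of the fits. By an exact two-sided permutation test of log2(CPM + 0.1) it gave p = 0.167 for Lepr+ HSC against Lepr- HSC and p = 0.0476 for Lepr+ MPP against Lepr- MPP. For Lepr+ HSC against Lepr+ MPP the exact permutation p was 0.675 and for Lepr- HSC against Lepr- MPP it was 1, where 5 against 5 libraries allow no p below 0.00794. Of its exonic bases 62.8% are shared with the read-through gene entry Gm49394, which had 0 counts.

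Plagl1, the growth-arresting zinc-finger factor at chr10:13060504-13131694 on the plus strand, was read in 9 libraries. It had 23, 110, 76, 0 and 0 counts in Lepr+ HSC, against 16, 0, 5, 0 and 0 in Lepr- HSC. Lepr+ MPP had 10, 28, 37, 8 and 0 counts, against 0 in all 5 Lepr- MPP libraries. In CPM these were 0.910, 5.65 and 2.21 in Lepr+ HSC replicates 1 to 3 and 0 in replicates 4 and 5. No Lepr- MPP library held a read of it, and within HSC the ranges overlapped.

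Dlk1 (chr12:109452823-109463336, plus strand) was read in 17 libraries. It had 5.07, 6.37, 3.22, 2.28 and 3.36 CPM in Lepr+ HSC, against 2.40, 2.06, 2.87, 0 and 2.23 CPM in Lepr- HSC. Every Lepr+ HSC library was above the Lepr- HSC library of its number, yet the ranges overlapped. In MPP the means were 1.57 ± 1.10 CPM in Lepr+ and 1.41 ± 1.22 CPM in Lepr- libraries (SD, n = 5 each). Its neighbour Meg3 (chr12:109541001-109571726, plus strand) was read in 14 libraries, at 10.9, 0.257, 2.79, 2.88 and 0 CPM in Lepr+ HSC and at most 1.89 CPM in Lepr- HSC. Meg3 reached 3.04 CPM in Lepr+ MPP, against 1.30 CPM in Lepr- MPP. Dlk1 and Meg3 varied together, with a Pearson r of log2 CPM of 0.601 over the 20 libraries and 0.539 after the group means were taken out.

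Peg3 (chr7:6703892-6730431, minus strand) and Mest (chr6:30723547-30748465, plus strand) were read in 9 and 15 libraries. In most groups 1 or 2 libraries held most of their reads. Peg3 was at most 0.842 CPM in Lepr+ HSC, 3.82 in Lepr- HSC, 7.20 in Lepr+ MPP and 1.59 in Lepr- MPP, with at least 2 libraries at 0 in every group. Mest had 1.46, 0, 0.493, 0.379 and 12.5 CPM in Lepr+ HSC, against 0.642, 0, 1.03, 2.66 and 0 CPM in Lepr- HSC. Lepr+ MPP had 0.131, 9.30, 1.15, 0 and 11.1 CPM of Mest, against 0.833, 0.720, 0.912, 0 and 0.289 CPM in Lepr- MPP. Mest shares 23.1% of its exonic bases with Copg2, which had 34,113 counts, so reads between them may be shared out uncertainly.

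**Figure D2:**
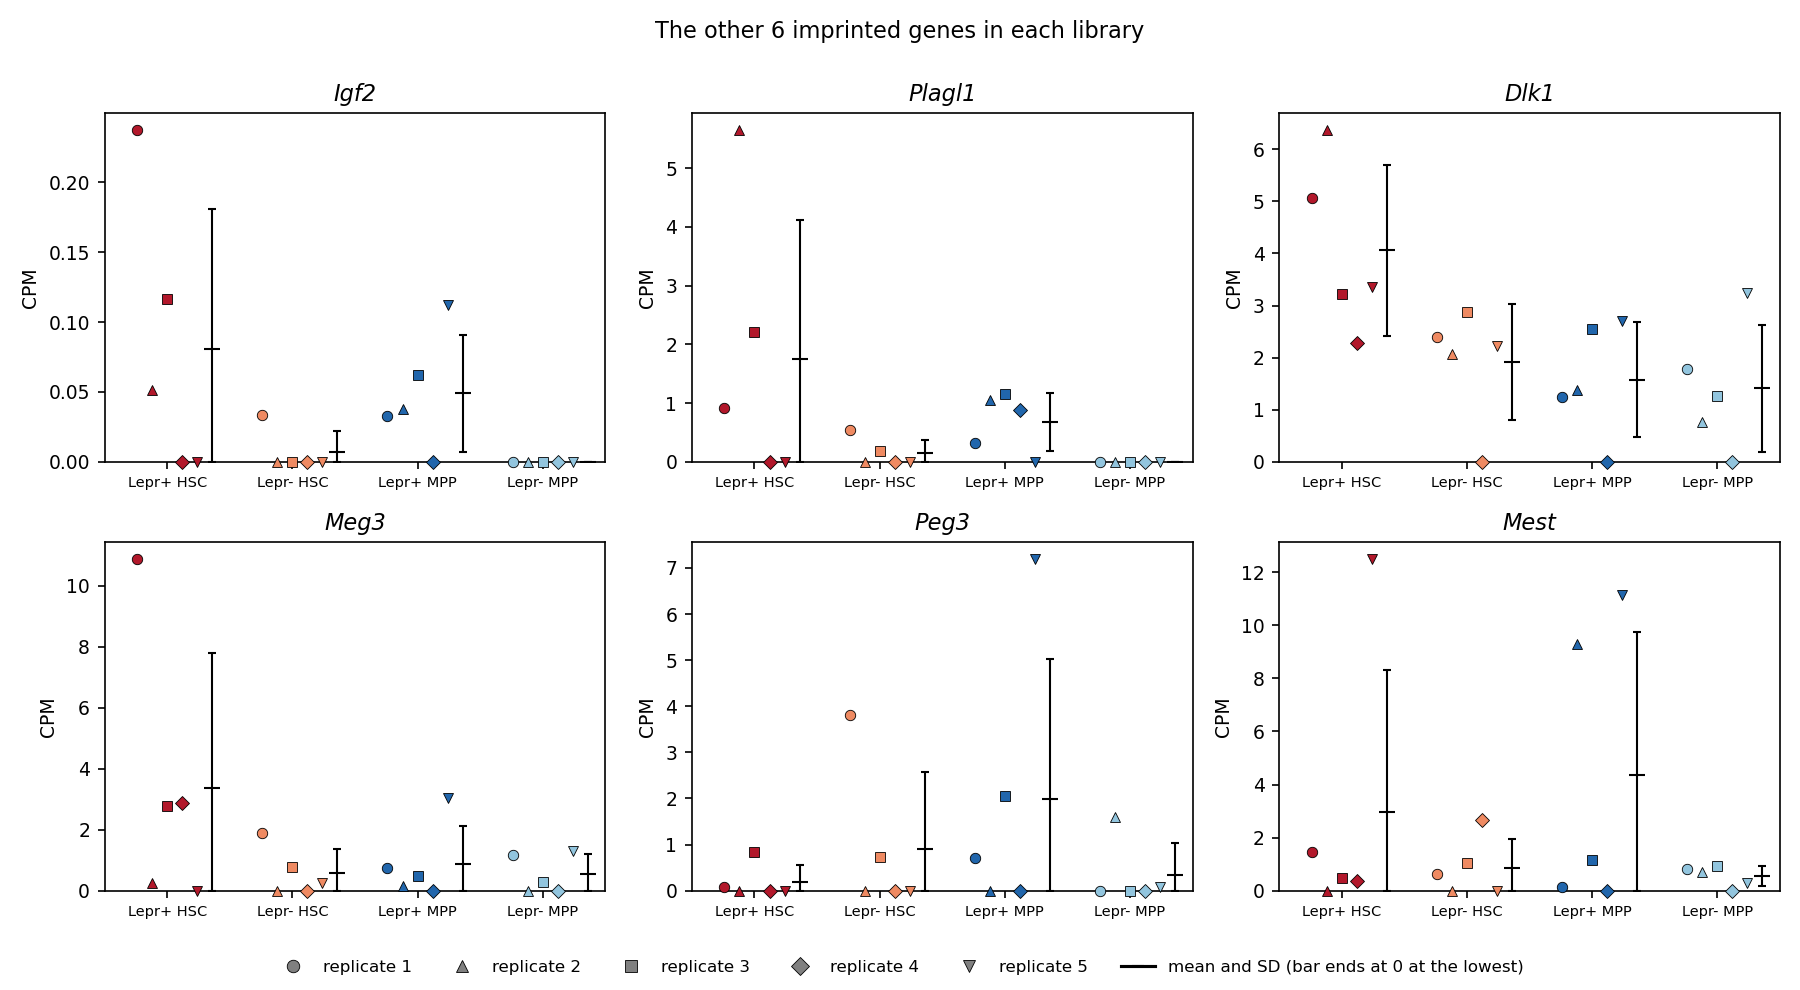
CPM of Igf2, Plagl1, Dlk1, Meg3, Peg3 and Mest in each library of the 4 groups, HSC left and MPP right with Lepr+ before Lepr- (1 panel per gene, marker shape for the replicate number, mean and SD of 5 libraries as a bar). All 6 genes are at 0 in some libraries, and Igf2 and Plagl1 are at 0 in all Lepr- MPP libraries.

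How many members were read differed between libraries as well as groups. Of the 10, Lepr+ HSC replicates 1 to 5 held counts for 10, 8, 10, 7 and 6, and Lepr- HSC for 10, 5, 9, 5 and 6. Lepr+ MPP held counts for 9, 9, 10, 4 and 8, and Lepr- MPP for 6, 6, 6, 3 and 7. The libraries of replicate 4 held 3 to 7 members and 14,972 to 16,382 genes of any kind, those of replicate 3 held 6 to 10 members and 20,841 to 21,873 genes. A count of 0 in a library of replicate 4 allows up to 0.209 to 0.330 CPM, counting error only, so low members could not be told from absent ones there. The libraries carry no molecular identifiers, so copies made by PCR count as reads, and every interval and floor covers counting error only.

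The comparison of Lepr+ with Lepr- HSC asked whether the growth regulators differ with the receptor within stem cells. Ndn was 2.00 times and Cdkn1c 2.38 times as high in Lepr+ HSC by mean CPM, without overlap and in 5 of 5 replicate pairs. The fitted log2 fold changes were 1.00 ± 0.23 for Ndn and 1.25 ± 0.32 for Cdkn1c (SE). In edgeR's quasi-likelihood test with Benjamini-Hochberg adjustment over 16,509 genes neither passed 0.05, with adjusted p = 0.0980 and 0.144. Libraries of the same replicate number carry the same date, and with this number as a block both passed, with adjusted p = 0.0113 for Ndn and 0.0481 for Cdkn1c. DESeq2 also called both. Within the libraries dated June (replicates 1, 3 and 5) Ndn had 1.02 and Cdkn1c 1.33, and within those dated July (replicates 2 and 4) 1.02 and 1.21. Without the block, these p-values measure the spread between the 5 samples per group, each from 2 mice. With it, they measure the spread left after the replicate number is taken out. In each fit all 4 groups share the estimate of the spread. Without the block 0 of 9 members tested were called and 2 had an unadjusted p under 0.05, as had 1,149 of all 16,509 genes tested. Of all genes, edgeR called 0.0969% higher in Lepr+ HSC without the block and 0.763% with it, and DESeq2 0.964%. All 5 Lepr+ HSC above all 5 Lepr- HSC libraries was seen for 2 members and for 0.999% of all genes tested.

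H19 and Dlk1 were also higher in 5 of 5 pairs in HSC, with overlapping ranges. H19 had 300 counts in Lepr+ HSC and 161 in Lepr- HSC, and a log2 fold change of 1.09 ± 1.17 (edgeR adjusted p = 1.00). Dlk1 had a log2 fold change of 1.08 ± 1.09 (edgeR adjusted p = 1.00). Plagl1, with 209 counts in Lepr+ HSC and 21 in Lepr- HSC, had 3.46 ± 1.65 (edgeR adjusted p = 0.727), and Meg3, with 414 counts in Lepr+ HSC and 80 in Lepr- HSC, had 2.49 ± 1.62 (edgeR adjusted p = 0.943). For Grb10 the log2 fold change was -0.19 ± 0.28, for Peg3 -2.19 ± 1.99 and for Mest 1.77 ± 1.62. Igf2 had 11 counts in Lepr+ HSC and 1 in Lepr- HSC, a ratio of 10.5 with a 95% exact interval of 1.53 to 453. Of the 9 members tested 7 had a positive log2 fold change, with a median of 1.09, where the median over all genes was 0.00 and 49.6% were positive. The members were chosen with earlier results of these data known, so such shares and medians are descriptions only, here and in the other comparisons.

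In MPP Ndn and Cdkn1c were again higher in all 5 Lepr+ libraries. Ndn was 1.95 times and Cdkn1c 2.65 times as high in Lepr+ MPP by mean CPM. Log2 fold changes were 0.97 ± 0.23 for Ndn (edgeR adjusted p = 0.104) and 1.40 ± 0.32 for Cdkn1c (edgeR adjusted p = 0.0861). With the replicate block Ndn passed, at adjusted p = 0.0354, and Cdkn1c had 0.0803. Cdkn1c passed the test without the block when Lepr+ MPP replicate 1 was left out, at edgeR adjusted p = 0.0455. Ndn had 0.76 within the June and 1.34 within the July libraries, and Cdkn1c 1.17 and 1.70. Plagl1 had 83 counts in Lepr+ MPP and 0 in Lepr- MPP, at least 29-fold higher against a floor of 3 counts over the group, with counts in 4 of 5 Lepr+ libraries (edgeR adjusted p = 0.327). H19 had 55 counts in Lepr+ MPP and 0 in Lepr- MPP, at least 19.2-fold higher but from 2 of 5 libraries (edgeR adjusted p = 0.191), and at least 7.91-fold without Lepr+ MPP replicate 2. Igf2 had 5 counts in Lepr+ MPP and 0 in Lepr- MPP, too few for a bound once the library of most counts is left out.

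In the main test 0 of 9 members were called between Lepr+ and Lepr- MPP, and 4 had an unadjusted p under 0.05, as had 728 of all 16,509 genes tested. The block called 1 member and DESeq2 called 3, Ndn, Cdkn1c and H19. Of all genes edgeR called 0.176% higher in Lepr+ MPP, the block 0.0909% and DESeq2 1.20%, and 1.19% had all 5 Lepr+ above all 5 Lepr- libraries, as 2 members had. Grb10 had a log2 fold change of 0.35 ± 0.28, Dlk1 0.16 ± 1.08, Meg3 0.65 ± 1.57, Peg3 2.53 ± 2.02 and Mest 2.95 ± 1.68. All 9 values were positive, with a median of 1.40 against 0.01 over all genes, of which 51.3% were positive. Those of H19 and Plagl1 could only be positive, as both had 0 counts in Lepr- MPP. With H19 and Plagl1 at their lower bounds the median was the same, since both stay above it.

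These Lepr differences stood beside differences in markers of other cells. In HSC edgeR called 0 of 22 stromal genes tested between Lepr+ and Lepr- libraries and DESeq2 called 3, while 8 had an unadjusted p under 0.05 and 17 a positive log2 fold change. In MPP 7 of 22 were called higher in Lepr+ libraries, and 21 had a positive log2 fold change. Cxcl12, the chemokine of marrow stroma, had 8.65, 342.5, 393.7, 598.4 and 311.2 CPM in Lepr+ MPP replicates 1 to 5 and at most 2.89 CPM in Lepr- MPP. In HSC it had 0.304 to 64.5 CPM in Lepr+ libraries and 0 to 8.16 CPM in Lepr- libraries. Summed levels of 14 endothelial genes were 104.6 to 741.1 CPM in Lepr+ MPP against 44.0 to 81.9 CPM in Lepr- MPP, and 116.1 to 241.3 CPM in Lepr+ HSC against 51.9 to 77.8 CPM in Lepr- HSC. Of 13 endothelial genes tested, 12 had a positive log2 fold change by receptor in HSC and 13 in MPP. EdgeR called 0 of them in HSC and 4 in MPP, the block 2 and 2, and DESeq2 4 and 11. Adipoq averaged 25.1 CPM in Lepr+ MPP and 0 in Lepr- MPP, and 3.60 CPM in Lepr+ HSC compared with 0.0068 CPM in Lepr- HSC. The members' levels can be set against these within a group. Lepr+ MPP replicate 1, lowest in stromal genes at 233.8 CPM, had 46.1 CPM of Ndn, inside the 37.6 to 49.9 CPM of the other 4. For Cdkn1c it had 7.80 CPM, the lowest of the group, while replicates 4 and 5, with 1095 and 3528 CPM of stromal genes, had 19.3 and 19.8 CPM. The endothelial sum in Lepr+ MPP replicates 1 to 5 was 104.6, 556.9, 195.1, 689.3 and 741.1 CPM. Cdkn1c ranked these replicates in the same order as both sums. In Lepr+ HSC replicates 1 to 5 the stromal sum was 223.9, 186.1, 353.8, 114.0 and 186.6 CPM. The endothelial sum there was 120.1, 116.1, 201.7, 127.0 and 241.3 CPM. Cdkn1c ranked these HSC replicates in the reverse order of the stromal sum, and otherwise than the endothelial sum. Ndn had none of these orders in either group. Markers of blood lineages moved with the receptor as well, with summed levels of 10 erythroid genes of 79.9 to 266.3 CPM in Lepr+ HSC as against 294.3 to 1220 CPM in Lepr- HSC, and of 9 megakaryocyte genes of 1478 to 2973 CPM in Lepr+ HSC as against 2772 to 5783 CPM in Lepr- HSC. In MPP the erythroid sum was 32.8 to 245.9 CPM in Lepr+ libraries and 178.8 to 1004 CPM in Lepr- libraries, with 9 of 10 log2 fold changes negative and Gata1 called lower by edgeR, against 9 of 10 negative and 0 called in HSC. The megakaryocyte sums overlapped in MPP, at 638.3 to 1188 CPM in Lepr+ and 608.8 to 1012 CPM in Lepr- libraries. Of 8 megakaryocyte genes tested, 5 had a positive log2 fold change by receptor in MPP and 2 in HSC. The sum of 7 B-lineage genes was 64.3 to 927.5 CPM in Lepr+ MPP and 56.6 to 85.6 CPM in Lepr- MPP, and 0 of the 4 tested were called by edgeR. The 8 HSC markers moved with the receptor too. Between Lepr+ and Lepr- HSC 7 of 8 had a positive log2 fold change, with a median of 1.02, and edgeR called Procr and Hlf higher without the block, and Ly6a and Mecom as well with it. Their summed level was 1263 to 1745 CPM in Lepr+ HSC and 626.4 to 1116 CPM in Lepr- HSC. Between Lepr+ and Lepr- MPP 6 of 8 were positive and edgeR called 0. These called markers are named after their values were seen. The part of other cells in these differences was not tested further, and in bulk RNA fewer cells of a type and less RNA per cell cannot be told apart.

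**Figure D3:**
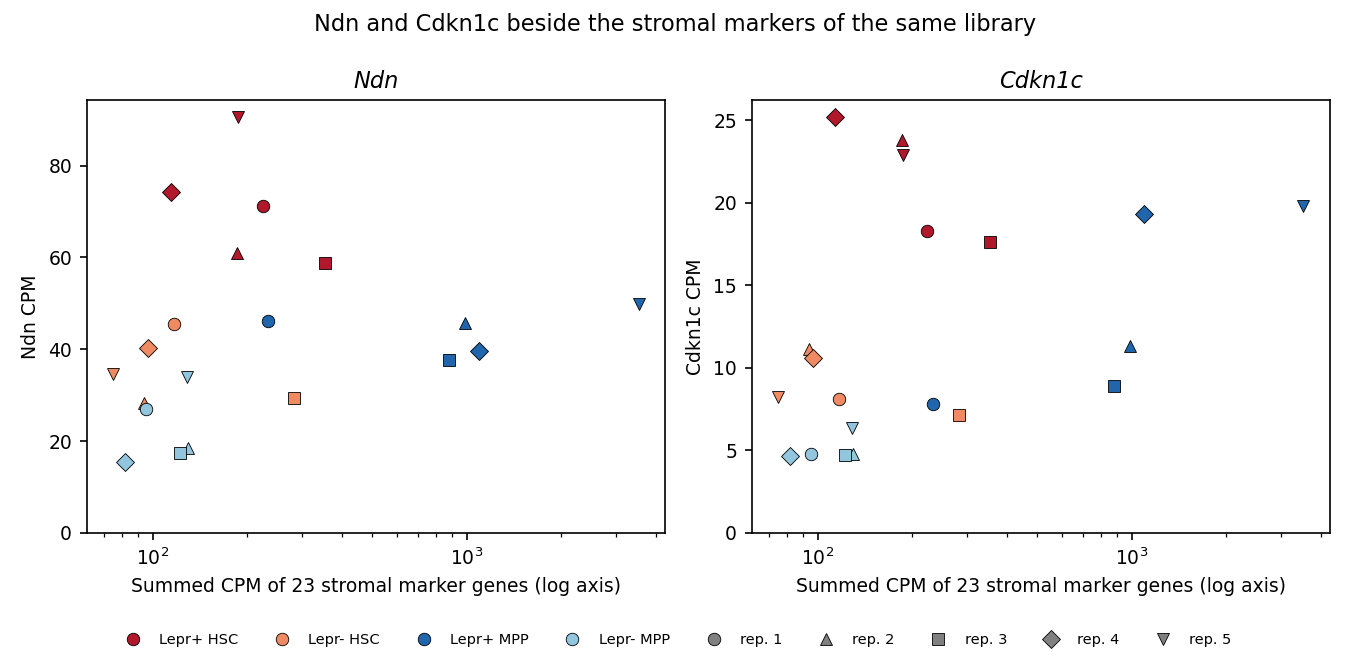
CPM of Ndn and Cdkn1c (vertical axes) against the summed CPM of 23 stromal marker genes (horizontal log axis), 1 point per library, coloured by group. Lepr+ HSC and Lepr- HSC overlap on the stromal axis but not in Ndn or Cdkn1c, and Lepr+ MPP reach 3528 CPM of stromal genes. The summed endothelial genes, not drawn, do not overlap between Lepr+ HSC (116.1 to 241.3 CPM) and Lepr- HSC (51.9 to 77.8 CPM).

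HSC were compared with MPP within each receptor state, as 2 gates that differ in CD150. Megakaryocyte genes differed between these gates as well. Of 8 tested, 8 were higher in HSC in both receptor states, and edgeR called 3 in Lepr+ and 5 in Lepr- cells. The part of such differences in the values below was not tested. In Lepr- cells H19 was higher in HSC, with 161 counts in Lepr- HSC and 0 in Lepr- MPP, at least 62.1-fold against a floor of 3 counts over the group. It passed the main test, with edgeR adjusted p = 0.0150, and the adjusted p was 0.0202 with the block. Its fitted log2 fold change, 7.96 ± 1.68, depends on the prior count because Lepr- MPP held no read. The call was lost in the June libraries alone (edgeR adjusted p = 0.208) and in the July libraries alone (0.935), and with only the 2 groups fitted H19 was removed by the filter on low counts. H19 could thus be tested only because the filter also counted libraries outside this comparison. Lepr- HSC replicate 5 held 2 counts of it. All 5 Lepr- HSC libraries had H19 and no Lepr- MPP library did. Ndn was 1.58 times as high in Lepr- HSC (log2 0.67 ± 0.23, edgeR adjusted p = 0.162, and 0.0216 with the block, and 0.48 in June and 0.98 in July) and was higher in 5 of 5 pairs. Cdkn1c was 1.79 times as high, without overlap (log2 0.84 ± 0.32, edgeR adjusted p = 0.227), and Grb10 had a log2 fold change of 0.81 ± 0.28 (edgeR adjusted p = 0.178) and was higher in 4 of 5 pairs.

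Plagl1 had 21 counts in Lepr- HSC and 0 in Lepr- MPP, at least 8.10-fold higher and from 2 libraries (edgeR adjusted p = 0.278), and at least 2.77-fold without Lepr- HSC replicate 1. Log2 fold changes of Dlk1, Meg3, Peg3 and Mest were 0.45 ± 1.08, 0.11 ± 1.55, 1.43 ± 1.94 and 0.62 ± 1.59. So 1 of 9 members was called by edgeR, against 1.22% of all genes called higher in Lepr- HSC. An unadjusted p under 0.05 was reached by 5 of the 9 and by 2,026 of all 16,509 genes tested. The block called 2, Ndn and H19, against 4.07% of all genes, and DESeq2 called 2, Cdkn1c and H19, against 2.28%. For 2 members, Cdkn1c and H19, all 5 Lepr- HSC libraries lay above all 5 Lepr- MPP libraries, as for 2.79% of all genes. All 9 log2 fold changes were positive, with a median of 0.81, against 0.01 and 50.5% positive over all genes, and the median was the same with H19 and Plagl1 at their lower bounds. As H19 and Plagl1 had 0 counts in Lepr- MPP, their values could only be positive.

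Within Lepr+ cells Ndn was 1.62 times as high in HSC as in MPP, without overlap (log2 0.70 ± 0.23, edgeR adjusted p = 0.252). H19 had 300 counts in Lepr+ HSC and 55 in Lepr+ MPP, also without overlap (log2 2.94 ± 1.25, edgeR adjusted p = 0.559). Cdkn1c was higher in 5 of 5 pairs (log2 0.69 ± 0.31, edgeR adjusted p = 0.607), as was Dlk1 (log2 1.36 ± 1.10). Plagl1 had 1.35 ± 1.52, Meg3 1.95 ± 1.60, Grb10 0.27 ± 0.28, Peg3 -3.29 ± 2.08 and Mest -0.56 ± 1.57, and Igf2 had 11 counts in Lepr+ HSC and 5 in Lepr+ MPP. With edgeR 0 of 9 members were called and 3 had an unadjusted p under 0.05, as had 1,302 of all 16,509 genes tested. DESeq2 called 0 members. Over all genes 0.260% were called higher in Lepr+ HSC by edgeR and 1.14% by DESeq2, and 1.11% had all 5 libraries above all 5. The 9 values had a median of 0.70, with 7 positive, against -0.02 and 48.4% positive over all genes.

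Whether the Lepr difference itself differed between HSC and MPP was tested as an interaction, HSC minus MPP. The interaction in log2 was 0.03 ± 0.32 for Ndn, -0.15 ± 0.44 for Cdkn1c and -0.54 ± 0.40 for Grb10. H19 had -5.02 ± 1.77, with an unadjusted p of 0.0123 and an edgeR adjusted p of 1. With edgeR 0 members and 0% of all genes were called, and 1 member and 529 genes had an unadjusted p under 0.05. The comparisons share groups, so their counts are not independent.

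**Figure D4:**
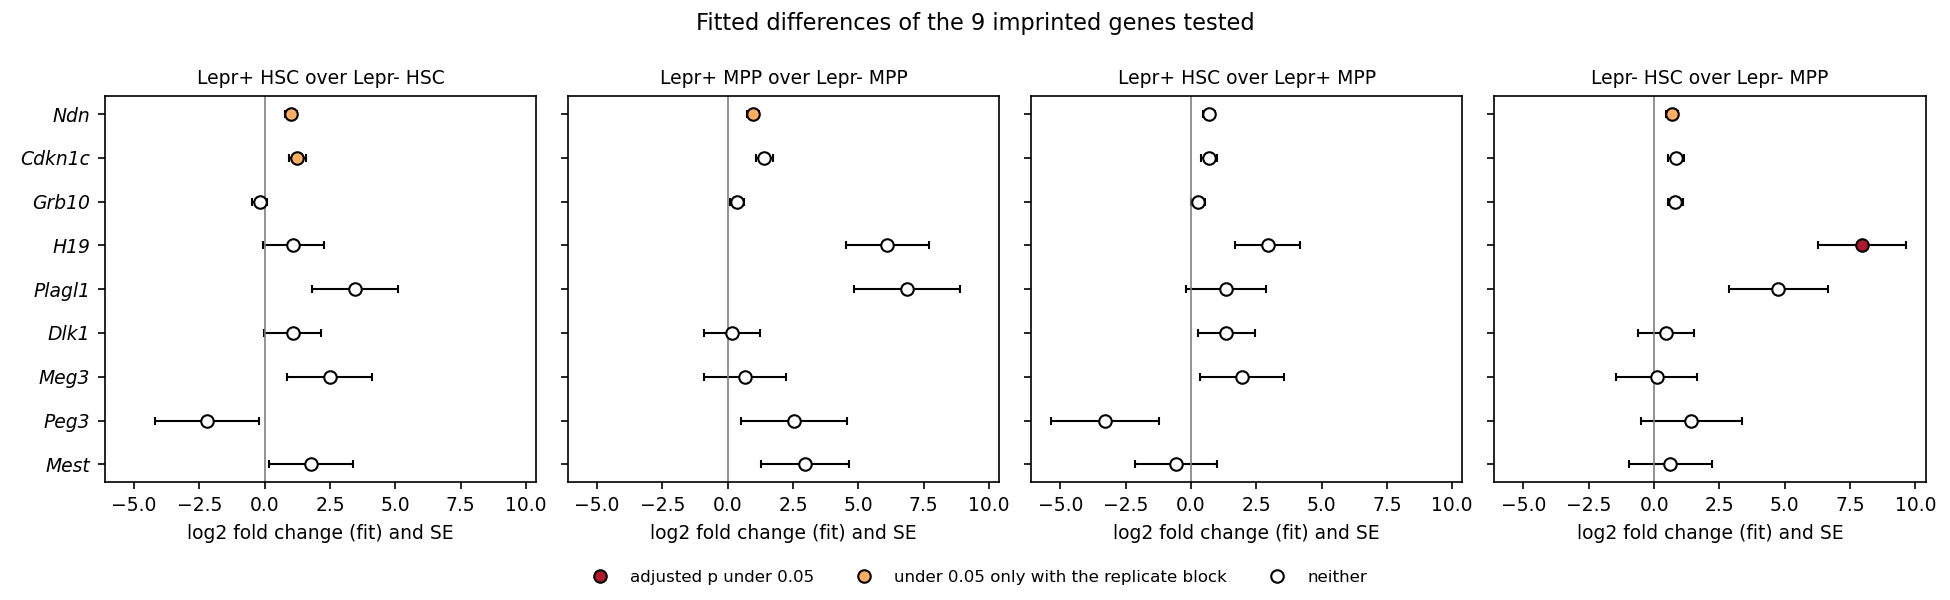
Fitted log2 fold change ± SE of the 9 tested members in the 4 comparisons, Lepr+ over Lepr- within HSC and within MPP and HSC over MPP within Lepr+ and within Lepr- cells. Red marks an edgeR adjusted p under 0.05, which only H19 in Lepr- HSC over Lepr- MPP had, orange a call with the replicate block alone (Ndn in 3 comparisons, Cdkn1c in Lepr+ over Lepr- HSC) and white neither. Values of H19 and Plagl1 over Lepr- MPP, where both are at 0, depend on the prior count.

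Across the 20 libraries Ndn and Cdkn1c were the most alike pair of members, with a Pearson r of log2 CPM of 0.870, and of 0.239 after the group means were taken out. For Ndn and H19 these were 0.661 and 0.061. These r are descriptions over libraries that share groups and dates. Among 10,619 other genes the patterns most like Ndn were Cpne8 (r = 0.892), Cdkn1c and Tbkbp1 (r = 0.861). Cpne8, a copine, averaged 22.7 CPM in Lepr+ HSC, 12.5 in Lepr- HSC, 10.2 in Lepr+ MPP and 4.10 in Lepr- MPP. For Cdkn1c they were Cavin3 (r = 0.913), Rhoj (r = 0.870) and Ndn. For H19 they were Adgrg2 (r = 0.902), Rhof (r = 0.856) and Serpina3g (r = 0.846). Adgrg2, an adhesion receptor, averaged 6.67 CPM in Lepr+ HSC, 4.33 in Lepr- HSC, 0.675 in Lepr+ MPP and 0.0378 in Lepr- MPP. Dlk1 was most like Thrb (r = 0.892), Slc35d1 and Zfp516, and Grb10 most like Cttn (r = 0.698), Cdc42ep4 and Ptn. The sparse members had lower leading values, Plagl1 with Igkc, Sema6d and Col6a1 up to 0.744, Meg3 with Rc3h2, Mmp16 and Coro2b up to 0.765, Peg3 with Cpe, Slc1a2 and Abat up to 0.735 and Mest with Iqsec1, Gnai1 and Phlpp2 up to 0.797.

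The genes beside the members in their imprinted domains were read as well. Of 35 neighbours read, 27 had a count and 17 could be tested, and in 68 tests edgeR called 0, the block 1 and DESeq2 1, while 3 had an unadjusted p under 0.05. In the domain of Cdkn1c, Kcnq1ot1, the non-coding RNA that silences it on the paternal copy, had group means of 54.8 to 77.8 CPM and libraries of 4.39 to 274.6 CPM. Kcnq1 itself had 80 counts in 4 libraries. Osbpl5, a lipid-transfer protein gene, averaged 8.01 CPM in Lepr- HSC compared with 34.7 CPM in Lepr- MPP (log2 -2.11 ± 0.73, edgeR adjusted p = 0.173, and 0.0348 with the block). Cd81 and Tspan32, tetraspanin genes, were far more abundant, with group means of 456.2 to 660.4 and 546.8 to 719.8 CPM. Nap1l4 had 309.6 to 322.0 CPM, Tssc4 68.7 to 110.5, Slc22a18 12.6 to 24.4, Phlda2, a placental growth restrainer, 10.7 to 16.4 and Ascl2 0.0195 to 0.869.

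In the domain of Igf2 and H19, Ins2 had 3 counts and Nctc1 had 1. In the Dlk1-Meg3 domain Rtl1 had 28 counts in 4 libraries, Mirg 43 counts in 3 and Dio3 19 counts in 2, all of them Lepr+, and Begain had group means of 1.99 to 3.56 CPM. Beside Ndn, Mkrn3 had 2.58 to 5.08 CPM, Peg12 12.5 to 19.3, Snrpn 0.438 to 2.26, Snhg14 0.423 to 0.887 and the ubiquitin ligase Ube3a 74.5 to 86.9. Near Grb10 the group means of Ddc were 0.170 to 2.91 CPM and Cobl had 88 counts in 3 libraries. Phactr2, near Plagl1, had 82.9 to 111.9 CPM, and Copg2, beside Mest, 68.4 to 89.4 CPM, with 2 counts for Klf14. Usp29, beside Peg3, had 16 counts in 1 Lepr+ MPP library. Igf2os, Th, Zim1, Zim3, Zfp264, Cpa4, Magel2 and Snurf had 0 counts.

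A list of 51 other imprinted genes included 28 of the neighbours above. Of the 51, 32 could be tested, 16 of them neighbours, and edgeR called 0 of them in each of the 4 comparisons. In Lepr+ over Lepr- HSC 18 log2 fold changes were positive and 14 negative, with a median log2 fold change of 0.12. Slc22a3, an organic cation transporter gene, averaged 101.2 CPM in Lepr+ HSC compared with 196.0 CPM in Lepr- HSC, without overlap (log2 -0.95 ± 0.30, edgeR adjusted p = 0.333, and 0.0394 with the block). Phlda2 had 0.60 ± 0.38, Nap1l5 2.58 ± 1.78 and Sgce 0.34 ± 0.25. By receptor in MPP 21 of 32 were positive, with a median of 0.11, led by Nap1l5 at 3.39 ± 1.86, Snrpn at 2.35 ± 1.32, Slc22a3 at -0.51 ± 0.30 and Dhcr7 at -0.43 ± 0.27. In Lepr+ HSC over Lepr+ MPP 15 were positive and 17 negative, with Tssc4 at 0.59 ± 0.24, Dhcr7 at 0.55 ± 0.27, Osbpl5 at -1.33 ± 0.71 and Slc22a3 at -0.46 ± 0.30. In Lepr- HSC over Lepr- MPP 16 were positive and 16 negative, with Osbpl5 above, Commd1 at 0.85 ± 0.31, Tssc4 at 0.59 ± 0.24 and Tspan32 at 0.40 ± 0.20. Unadjusted p under 0.05 was reached by 1, 0, 1 and 3 of the 32 in these 4 comparisons, and DESeq2 called 0, 0, 0 and 1.

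Genes that keep imprints, such as the methyltransferases and the ZFP57 partner Trim28, were called in none of the 4 comparisons by edgeR, the block or DESeq2, with 14 of 18 tested. In Lepr+ over Lepr- HSC 11 of 14 had negative log2 fold changes (median -0.35), led by Trim28 at -0.39 ± 0.19, Uhrf1 at -0.48 ± 0.24, Hells at -0.30 ± 0.29 and Dnmt3a at -0.37 ± 0.37. In MPP by receptor 12 of 14 were negative (median -0.18), with Uhrf1 at -0.55 ± 0.24, Hells at -0.45 ± 0.29, Trim28 at -0.21 ± 0.19 and Dnmt3b at -0.34 ± 0.35. Uhrf1, which brings the maintenance methyltransferase to replicating DNA, and the helicase Hells were positive in HSC over MPP. Uhrf1 had 0.75 ± 0.24 in Lepr+ and 0.68 ± 0.24 in Lepr- cells, and Hells had 0.81 ± 0.29 and 0.66 ± 0.29, with edgeR adjusted p of at least 0.183. Dnmt3a and Dnmt3b had -0.52 ± 0.37 and -0.36 ± 0.35 within Lepr+ cells, and Dnmt3b and Arid4b had -0.58 ± 0.35 and -0.87 ± 0.60 within Lepr- cells.

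The IGF axis, through which Igf2, H19 and Grb10 are known to act, had 16 of 20 genes tested. Its receptors were read throughout. Igf1r averaged 86.1 ± 7.50 CPM in Lepr+ HSC and 86.2 ± 27.8 in Lepr- HSC, and 105.2 ± 33.3 in Lepr+ MPP and 91.9 ± 25.5 in Lepr- MPP (SD, n = 5 each). Igf2r, which clears Igf2, had libraries of 0.220 to 34.5 CPM. Binding proteins, secreted carriers of IGFs, led the list by receptor. Igfbp5 averaged 28.6 CPM in Lepr+ MPP, against 0.0303 CPM in Lepr- MPP, and rose in Lepr+ MPP (log2 9.48 ± 1.62, edgeR adjusted p = 0.0253), where it was the only gene of the axis called. It is also 1 of the 23 stromal markers. DESeq2 called Igfbp2 and Igfbp7 as well. In the other 3 comparisons edgeR called 0 of the 16, and DESeq2 called 0 in Lepr+ over Lepr- HSC, 2 in Lepr+ HSC over Lepr+ MPP and 1 in Lepr- HSC over Lepr- MPP. In HSC the leading genes by receptor were Igfbp5 at 4.36 ± 1.38, Igfbp7 at 3.82 ± 1.29, Igfbp2 with 16 counts in Lepr+ HSC and 0 in Lepr- HSC, and Igfbp3 with 27 counts in Lepr+ HSC and 0 in Lepr- HSC. Of these, 15 Igfbp2 counts came from Lepr+ HSC replicate 3 and 22 Igfbp3 counts from replicate 1.

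In Lepr+ HSC over Lepr+ MPP 12 of the 16 IGF genes had negative log2 fold changes, led by Igfbp5 at -4.80 ± 1.26 (edgeR adjusted p = 0.116, and 0.0258 with the block), Igfbp2 at -5.77 ± 1.62, Igfbp7 at -2.93 ± 1.20 and Igfbp4 at -0.74 ± 0.31. In Lepr- HSC over Lepr- MPP 9 of 16 were negative, and Igfbp3, with 0 counts in Lepr- HSC and 253 in Lepr- MPP, was at least 72.9-fold lower (edgeR adjusted p = 0.149), but 239 of those counts came from Lepr- MPP replicate 2, without which the bound was 5.27-fold. Igf2bp2 had 2.08 ± 0.82, Irs2 -0.90 ± 0.41 and Igfbp4 -0.54 ± 0.31 there. Unadjusted p under 0.05 was reached by 4 genes in Lepr+ over Lepr- HSC, 5 in Lepr+ over Lepr- MPP, 5 in Lepr+ HSC over Lepr+ MPP and 3 in Lepr- HSC over Lepr- MPP.

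Of 6 other inhibitors of cyclin-dependent kinases 4 could be tested, and edgeR and DESeq2 called 0 in each of the 4 comparisons, with 1, 0, 0 and 1 at an unadjusted p under 0.05. In Lepr+ over Lepr- HSC Cdkn1b averaged 17.2 CPM in Lepr+ and 8.50 in Lepr- libraries (log2 1.01 ± 0.47, edgeR adjusted p = 0.695), Cdkn2c had a log2 fold change of -0.53, Cdkn1a 0.44 and Cdkn2d -0.16. In Lepr+ over Lepr- MPP all 4 lay between -0.19 and 0.17, and in Lepr+ HSC over Lepr+ MPP between -0.13 and 0.48. Cdkn2d averaged 110.1 CPM in Lepr- HSC compared with 63.1 CPM in Lepr- MPP, without overlap (log2 0.80 ± 0.26, edgeR adjusted p = 0.126, and 0.0048 with the block). There Cdkn2c had 0.60, Cdkn1a -0.75 and Cdkn1b -0.52.

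A list of 15 proliferation genes was read beside the members. Between Lepr+ and Lepr- HSC 15 of 15 had negative log2 fold changes (median -0.60), and between Lepr+ and Lepr- MPP 14 of 15 were negative (median -0.36). EdgeR and DESeq2 called 0 of them in both, and 7 and 2 had an unadjusted p under 0.05. In HSC over MPP 15 of 15 were positive, with medians of 1.08 in Lepr+ and 1.40 in Lepr- cells, and edgeR called 6 and 9 of them higher in HSC. Their summed CPM averaged 2663 in Lepr+ HSC, 3687 in Lepr- HSC, 1496 in Lepr+ MPP and 1915 in Lepr- MPP. H19 and the called proliferation genes were thus higher in the same group, Lepr- HSC, against Lepr- MPP.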

How the data were processed

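RNA of 20 sorted samples was measured, 5 per group. Per the labels' protocols, RNA was amplified with SMART-Seq v4, made into Nextera XT libraries that keep no strand and sequenced in paired ends on a NovaSeq6000. The submitters' processing notes name STAR 2.7.1a and HTSeq 0.11.2 along with cutadapt 2.1, FastQC 0.11.8, DESeq2 and the GRCm38 build. The authors deposited raw counts per gene for each sample. How reads in overlapping genes were counted is not given in the sources used here. The closing lines of reads in no gene held 21.4% to 38.7% of counts and were left out.

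Gene names came from GENCODE M21, which matched 55,180 of 55,573 identifiers. Genes were filtered with filterByExpr (minimum count 10, minimum total 15), which left 16,509, scaled by trimmed mean of M values and fitted with edgeR 4.0.16 (quasi-likelihood, robust, group only, all 20 libraries, R 4.3.3). P-values were adjusted over all genes tested at a threshold of 0.05. Alternatives were a replicate block, DESeq2 1.42.0, other scalings and filters, fits by date and each library left out. Plots used matplotlib 3.10.9. The edgeR fit was tried on simulated counts for Lepr+ over Lepr- HSC, with changes larger than those fitted for Ndn and Cdkn1c.

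The 4 libraries of a replicate number carry the same date in the deposited files, which is where the pairing comes from. Per the labels each sample came from 2 mice, and whether the samples of a number shared mice is not given in the sources used here. Deviations from group means correlated with a median r of 0.264 (-0.065 to 0.562) over 30 pairs of libraries with the same number and -0.086 over 120 pairs with different numbers.

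The members and lists were chosen with earlier results of these data known. Named are all members, all domain neighbours with a count, from the lists of other imprinted genes, imprint maintenance, the IGF axis and kinase inhibitors the genes called or else the 4 of smallest p in a comparison, and, for members whose highest group averaged 1 CPM or more, the 3 genes of highest Pearson r among those whose highest group averaged 5 CPM or more.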

Additional observations from a re-analysis of the deposited data

Results flagged for a closer look

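In 11 of 37 groups of 5 libraries a single library lay far from the other 4 of its group in the level of a member. Chance gives such a gap in about 1 of 20 groups of roughly normal values. That rate does not carry over to sparse members with libraries at 0. Igf2 and Peg3 were read in 8 and 9 of the 20 libraries, and Meg3 and Mest in 14 and 15. For Igf2 in Lepr- HSC a single library with reads gives a gap by construction. Cdkn1c was 6.35 CPM in Lepr- MPP replicate 5, with the other 4 between 4.67 and 4.81 CPM. Grb10 was 96.8 CPM in the same library, with the others at 62.3 CPM or less. Meg3 was 10.9 CPM in Lepr+ HSC replicate 1 and 3.04 CPM in Lepr+ MPP replicate 5. Peg3 was 0.842 CPM in Lepr+ HSC replicate 3, 3.82 CPM in Lepr- HSC replicate 1, 7.20 CPM in Lepr+ MPP replicate 5 and 1.59 CPM in Lepr- MPP replicate 2. The replicate highest in CPM thus differed between the groups. In Lepr+ MPP no single library carried Peg3, as replicates 1, 3 and 5 had 22, 66 and 64 counts. Mest was 12.5 CPM in Lepr+ HSC replicate 5. Dlk1 was 0 CPM in Lepr- HSC replicate 4, where the other 4 had at least 2.06 CPM. Igf2 was 0.0338 CPM, a single count, in Lepr- HSC replicate 1 and 0 in the others.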

How the results depend on the processing

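Of 711 values of single members under the alternatives, 664 kept their direction and their side of the threshold, 2 lost the call, 11 gained it and 34 turned round. Called members between Lepr+ and Lepr- HSC numbered 2 with the replicate block and 2 with DESeq2, against 0. Between Lepr+ and Lepr- MPP they numbered 1 with the block and 3 with DESeq2, against 0, and 0 to 1 with a library left out. The 1 was Cdkn1c without Lepr+ MPP replicate 1, at edgeR adjusted p = 0.0455, where leaving out each library in turn gave 0.0455 to 0.264. Between Lepr- HSC and Lepr- MPP they numbered 2 with the block, 2 with DESeq2, and 0 with only the groups compared, where H19 was removed by the filter. They numbered 0 with the June libraries only (H19 at 8.02) and 0 with the July libraries only (H19 at 7.75), fits with fewer samples. Leaving out each library, H19 stayed called, at adjusted p of 0.0178 to 0.0415. Ndn in Lepr+ over Lepr- HSC was 0.90 to 1.11 in 18 settings and Cdkn1c 1.18 to 1.34, and in MPP they were 0.76 to 1.34 and 0.89 to 1.70. Directions turned for Mest in Lepr+ over Lepr- HSC without the 3 libraries least like their groups (-0.54) and in July (-2.74), in Lepr+ HSC over Lepr+ MPP (0.27) and Lepr- HSC over Lepr- MPP (-0.29) in June. They also turned for Grb10 in Lepr+ over Lepr- HSC in June (0.09) and Meg3 in Lepr+ over Lepr- MPP without those 3 libraries (-0.26). The interaction turned for Ndn with the block (-0.01), without those 3 (-0.05) and in July (-0.32), and for Cdkn1c without those 3 (0.35) and in June (0.16). With a library left out, ranges that crossed 0 in Lepr+ over Lepr- HSC were -0.54 to 2.76 for Mest, -4.92 to 0.00 for Peg3 and -0.41 to 0.07 for Grb10. In Lepr+ over Lepr- MPP they were -0.15 to 0.71 for Dlk1 and -0.63 to 1.19 for Meg3, and in Lepr+ HSC over Lepr+ MPP -2.87 to 0.15 for Mest. In Lepr- HSC over Lepr- MPP they were -1.04 to 0.67 for Meg3, -0.76 to 5.51 for Peg3 and -0.37 to 0.94 for Mest, and in the interaction -0.14 to 0.14 for Ndn and -0.29 to 0.03 for Cdkn1c. The cause was not tested. Depth limits the low members, for which a count of 0 allows up to 0.338 CPM in the shallowest library.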
